A study of Mus musculus with 4 samples.

Results

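Matrix-type fibroblasts are the stromal cells of these mammary tumours that hold RNA of periostin (Postn), Lrrc15 or tenascin C (Tnc) together with much fibrillar collagen RNA. They were chosen by raw counts of unique molecular identifiers (UMIs, tags that count single RNA molecules) in each cell barcode. A member had at least 15 UMIs of Col1a1, Col1a2 and Col3a1 together and at least 2 of Postn, Lrrc15 and Tnc together. It had at most 1 UMI of the mural genes Rgs5 and Higd1b, at most 1 of the macrophage genes C1qa and C1qb, at most 3 of Krt8, Krt18, Krt5 and Krt14, and at most 1 of the adventitial genes Clec3b, Dpt and Pi16. In all, 729 of 36162 barcodes met the rule. The thresholds were set with earlier results of these data known, so the 17 genes that the rule reads are described below and not tested.

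Fibroblasts make and remodel the extracellular matrix. In tumours, some of them take on a state marked by periostin and Lrrc15, a leucine-rich repeat membrane protein, and often by smooth muscle actin. Cells of this state secrete fibrillar collagens, which are cross-linked into stiff fibres, and matricellular proteins, which bind matrix and cell surfaces without being structural. Transforming growth factor beta (TGF-beta) is the best known inducer of this state. Adventitial or universal fibroblasts, found around vessels and ducts, instead express Pi16, Dpt, Cd34 and Ly6a, complement components and hyaluronan synthases. Mural cells (pericytes and vascular smooth muscle) wrap blood vessels, contract, and also make collagen.

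Cells came from 4 mammary tumours of 3 female mice aged 13 to 14 weeks on an FVB background. Every mouse carried MMTV-PyMT, which expresses the polyoma middle T oncogene from a mammary tumour virus promoter in mammary epithelium, and K14-Cre, driven by the human keratin 14 promoter, with a Rosa-tdTomato reporter that Cre switches on. Tumour 1 was pooled from several glands of mouse 1, tumour 2 was inguinal from mouse 2, and tumours 3 and 4 were thoracic and inguinal from mouse 3. The tissue was digested with Liberase and depleted of dead cells, so shares are of cells that survived this. All samples are tumours, with no normal gland and no treatment, so the comparisons below are between cell types of the same animals. Mice are the replicates (n = 3), and tumours 3 and 4 were summed.

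The libraries held 8434 to 9580 barcodes and 20281799 to 39370565 UMIs, with a median per barcode from 1922.5 in tumour 1 to 3281 in tumour 2. Pairs of libraries shared 96 to 129 barcode sequences, 631 in all, and none of these was a member in both libraries of its pair. Members that shared a sequence with a non-member were not counted. Members numbered 117, 51, 307 and 254 in tumours 1 to 4, and their summed UMIs were 237318, 197403, 976297 and 703305. Their median depth was 1850, 3694, 3072 and 2648 UMIs. Levels below are CPM, the counts of a gene in a cell group scaled to a common total of UMIs. A level of 3 counts corresponds to 12.6, 15.2, 3.07 and 4.27 CPM in the members of tumours 1 to 4, so zeros in tumours 1 and 2 are the least informative.

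Matrix-type fibroblasts made up the largest group of the 1403 collagen-gated fibroblasts in tumours 1, 3 and 4, and the group with both marker sets was larger in tumour 2. The collagen-gated cells divide by the same counts into 729 matrix-type, 146 adventitial-type (the mirror rule), 358 with both marker sets and 170 with neither. Members were 56.0%, 34.2%, 48.5% and 61.7% of the fibroblasts of tumours 1 to 4, or 48.0% ± 12.0 (SD, n = 3 mice). As a share of all barcodes they were 1.34% (95% Clopper-Pearson interval 1.11 to 1.61), 0.532% (0.397 to 0.699), 3.64% (3.25 to 4.06) and 2.70% (2.38 to 3.04). The interval of tumour 2 lies below that of each other tumour, while tumours 3 and 4 of the same mouse are the highest. Intervals cover counting error only. Depth bears on this split, because a deeper cell more readily shows both sets. With each fibroblast thinned to 1500 UMIs the member shares were 53.2%, 36.9%, 38.2% and 56.7%, leaving out 68, 0, 21 and 29 shallower fibroblasts. In tumour 2 the members were then the larger group, since cells with both sets made up 29.5%, and in tumour 3 the cells with neither set, at 37.7%, were nearly as many as the members.

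**Figure D1:**
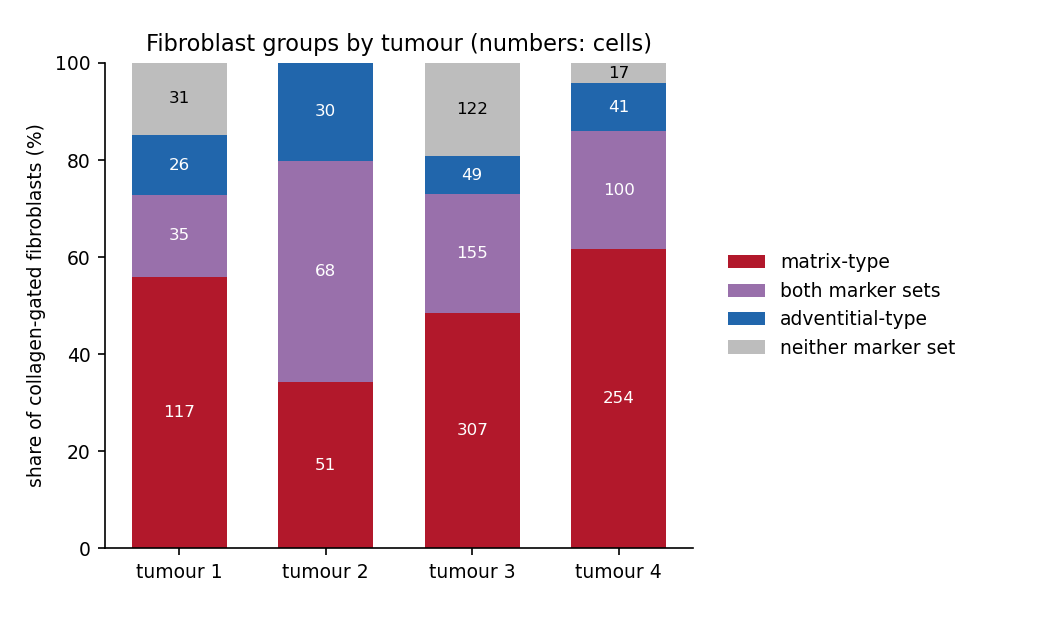
Share of collagen-gated fibroblasts (y axis, percent) in each marker group for tumours 1 to 4, with the number of cells printed in each bar segment. Matrix-type cells run from 34.2% in tumour 2 to 61.7% in tumour 4, and tumour 2 has no cell with neither marker set.

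Postn carried the rule. Of the 729 members, 690 (94.7%) held a Postn UMI, 488 (66.9%) an Lrrc15 UMI and 287 (39.4%) a Tnc UMI. All 3 genes were seen in 190 members, Postn with Lrrc15 in 268, Postn alone in 156, Postn with Tnc in 76, Lrrc15 alone in 18 and Lrrc15 with Tnc in 12. The remaining 9 members held Tnc only and so neither of the other genes. Summed levels of Postn were 1639, 3399, 1240 and 1674 CPM in tumours 1 to 4. Lrrc15 stood at 792, 532, 396 and 732 CPM and Tnc at 303, 643, 208 and 296 CPM. Tumour 2 was thus highest for Postn and Tnc but not for Lrrc15, and tumour 3 was lowest for all 3 genes. Postn lies on GRCm38 chromosome 3 (54361109 to 54391037, plus strand), Lrrc15 on chromosome 16 (30269302 to 30283256, minus strand) and Tnc on chromosome 4 (63959785 to 64047015, minus strand).

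The remaining rule genes were as the thresholds require. Col1a1 stood at 7425, 7654, 5537 and 8783 CPM, Col1a2 at 7913, 8956, 6647 and 8712 CPM and Col3a1 at 5301, 4372, 3882 and 4816 CPM. Pi16 was still seen at 80.1, 30.4, 54.3 and 64.0 CPM, since a single UMI of the adventitial genes was allowed. Near the thresholds, 123 members had exactly 2 UMIs of Postn, Lrrc15 and Tnc, and 92 otherwise eligible fibroblasts had 1 and 78 had 0. A single adventitial UMI was held by 182 members, and 105 cells were just outside with 2. Collagen sums of 15 to 19 were held by 53 members, and 38 cells lay just outside at 10 to 14.

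RNA of other cell types was low in the members relative to its source cells, and its part in the results was not tested. A list of 14 luminal epithelial genes summed to 2705, 1226, 1632 and 2420 CPM in the members of tumours 1 to 4, against 18052 to 42229 CPM in luminal cells, and none of the 14 was at 0. The 11 macrophage markers summed to 86.1 to 272 CPM against 24977 to 28407 CPM in macrophages. The 10 mural markers summed to 105 to 143 CPM against 2937 to 4262 CPM in mural cells, with Abcc9 and Vtn at 0. Endothelial markers summed to 21.1 to 74.8 CPM (Tie1 at 0) and basal epithelial markers to at most 23.6 CPM (Oxtr and Krt6a at 0). Lymphocyte markers summed to 8.19 to 86.1 CPM (Gzmb at 0) and adipocyte markers to at most 1.02 CPM (Adipoq, Cfd, Retn and Pck1 at 0). Cartilage and bone markers summed to 13.3 to 33.7 CPM, with Sp7, Bglap and Ibsp at 0. The tdTomato reporter stood at 459, 111, 263 and 336 CPM in the members and 2295, 1763, 2304 and 2331 CPM in luminal cells. No doublet caller was run.

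Tumour 3 stood apart within the matrix-type cells. Of its 307 members, 159 held a UMI of at least 2 of Ifitm1 (an interferon-induced membrane protein), Tnmd (tenomodulin, a tendon membrane protein), Cd79b (a B cell receptor subunit) and Slco2a1 (a prostaglandin transporter), which is 51.8% (46.0 to 57.5). Tumour 1 had 6 of 117 such members, or 5.13% (1.90 to 10.8). Tumour 2 had 0 of 51, which allows up to 6.98%, and tumour 4, from the same mouse as tumour 3, 0 of 254, which allows up to 1.44%. These upper bounds are Clopper-Pearson limits. The 4 genes were chosen after their values had been seen. In tumour 3 they also marked 83 of the 122 fibroblasts with neither marker set (68.0%), but 4 of 155 with both sets (2.58%) and 2 of 49 adventitial-type cells. Elsewhere in that tumour 7 of 74 mural cells and 0 of 101 endothelial cells met the definition, and over all tumours 30 of 17627 luminal cells did.

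Within tumour 3 the cells with these genes held less Postn and Col1a1 RNA and more RNA of basement membrane collagens than the other members. Postn stood at 746 CPM in the 159 cells and 1895 CPM in the 122 members with none of the 4 genes, Lrrc15 at 219 and 664 CPM, and Col1a1 at 4533 and 7075 CPM. The basement membrane chain gene Col4a1 stood at 1514 and 372 CPM and its partner Col4a2 at 1389 and 421 CPM. Col26a1 was at 291 and 11.4 CPM, the laminin chain gene Lamc3 at 169 and 8.59 CPM, and Itih5, a hyaluronan-associated heavy chain, at 750 and 106 CPM. S100a4 stood at 1366 and 286 CPM and the transcription factor gene Osr1 at 399 and 97.3 CPM. Lower in these cells were Cthrc1 (3.60 and 266 CPM), Gpx3 (8.99 and 670), Cilp (64.7 and 647), Col12a1 (221 and 993), Crabp1 (271 and 962) and Spp1 (226 and 1093). Tagln (626 and 710 CPM), Acta2 (442 and 541 CPM) and Mgp (7643 and 8177 CPM) were close.

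Fibroblasts of tumour 3 with neither marker set held Ifitm1 at 1249 CPM and Tnmd at 711 CPM. Both genes help define the groups, so members with none of the genes are at 0 for them by definition. Of these fibroblasts 83 of 122 met the definition of the 159 cells. Outside the definition, Col26a1 stood at 330 CPM, Itih5 at 649 CPM, Col12a1 at 242 CPM and Crabp1 at 250.3 CPM in these fibroblasts. Those levels lay nearer to the 159 cells than to the members with none of the genes. Spp1, at 1354 CPM, was nearer to the latter, and Gpx3 and Cthrc1, at 71.1 and 19.9 CPM, lay between both. Of 1368 genes compared at 100 CPM or more, 47 were over 2-fold higher in the 159 cells than in the members with none of the genes and 99 over 2-fold lower. The median depth was 3435 against 2624.5 UMIs. Of the markers of other cell types listed next, most were higher in the 159 cells. In the 159 cells and the members with none of the genes, the mural markers Cox4i2, Notch3 and Mcam stood at 57.5 and 0, 44.9 and 11.4, and 25.2 and 0 CPM. The mural marker Cspg4 went the other way, at 3.60 and 20.0 CPM from 2 and 7 UMIs, and Kcnj8 was at 0 in both. Plvap, of fenestrated endothelium, stood at 151 and 31.5 CPM. The endothelial marker Pecam1 stood at 5.39 and 8.59 CPM, from 3 UMIs in each. S100b stood at 306 and 65.8 CPM, the immune receptor chain gene Fcer1g at 255 and 31.5 CPM, and the tendon factor gene Scx at 0 in both. The part of such cells in these values was not tested. This is 1 library, so the differences have no replicate check. What sets these cells apart was not tested, and both comparisons below were repeated without them.

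**Figure D2:**
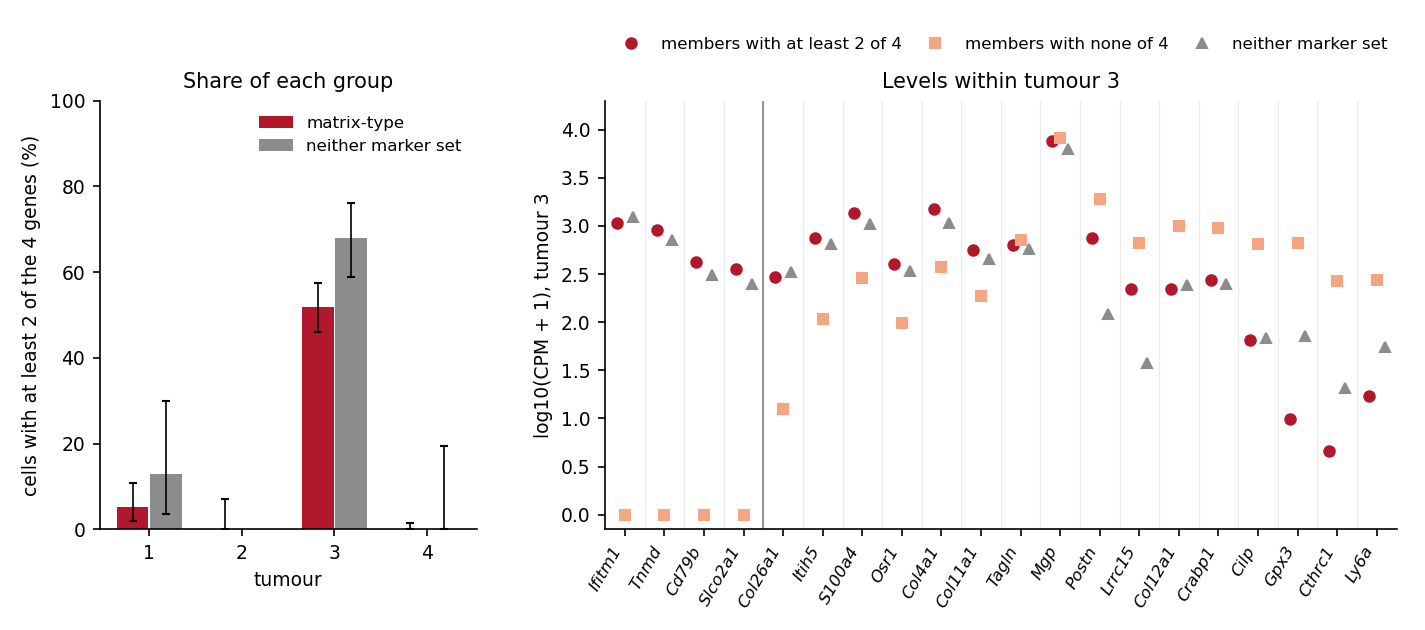
Left, percent of matrix-type cells and of fibroblasts with neither marker set (y axis) that hold a UMI of at least 2 of Ifitm1, Tnmd, Cd79b and Slco2a1 in tumours 1 to 4, with 95% Clopper-Pearson intervals. Right, log10(CPM + 1) of summed counts in tumour 3 for 20 genes in members with at least 2 of the 4 genes, members with none and fibroblasts with neither marker set. The 4 genes left of the vertical line define the groups, and all values on the right come from 1 library.

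Relative to all other barcodes the members were led by matrix and secreted proteins. This ranking compares the chosen cells with everything else and carries no test. Outside the rule, the widest ratios were 129 for C1qtnf3 (a secreted C1q/TNF-related protein), 97.2 for Crabp1 (a retinoic acid binding protein), 83.6 for Col8a1 (a short-chain collagen), 77.7 for Ccn4 (the matricellular protein WISP1) and 67.8 for the thrombospondin gene Thbs4. The member levels behind most of these ratios varied widely among mice. C1qtnf3 averaged 224 ± 245 CPM, Crabp1 857 ± 712, Col8a1 723 ± 672, Ccn4 187 ± 88.4 and Thbs4 234 ± 258 CPM (SD, n = 3 mice). Mgp, which encodes matrix Gla protein, an inhibitor of calcification, averaged 7683 ± 859 CPM (SD, n = 3 mice). Sparc, a collagen-binding matricellular protein, averaged 12270 ± 1663 CPM, and Bgn, the small proteoglycan biglycan, 3162 ± 313 CPM.

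The comparison with adventitial-type fibroblasts asks how the collagen-gated cells split by these markers differ elsewhere in the transcriptome. Contractile and actin genes and most collagen chains were higher in the matrix-type cells. Complement, adventitial and several proteoglycan genes were lower. Among 2540 genes tested outside the rule, 100 (3.94%) were higher and 185 (7.28%) lower at an adjusted p under 0.05 in edgeR's quasi-likelihood test. The median log2 fold change of all tested genes was 0.0029. With no count filter the split was 207 higher and 157 lower, at a median over all genes of 0.51, and without mouse 3 it was 36 higher and 60 lower. Adventitial-type cells numbered 26, 30, 49 and 41 in tumours 1 to 4 with a median depth of 2172 UMIs, against 2759 UMIs for the members. Luminal marker RNA in them summed to 1524, 2446, 1921 and 1650 CPM, a range that overlaps that of the members, and none of the 4 luminal genes tested was called.

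Genes of the contractile apparatus were higher in the members, as 11 of 18 tested passed and all 11 were higher. Tagln, which encodes the actin-binding protein transgelin (GRCm38 chromosome 9, 45929619 to 45936058, minus strand), stood at 632, 1950, 660 and 761 CPM in the members of tumours 1 to 4 and at 0, 11.3, 25.4 and 39.3 CPM in adventitial-type cells. Every member value lay above every adventitial value, and the members of tumour 2 stood far above those of the other tumours. The log2 fold change was 5.39 (SE 0.40, adjusted p = 9.0e-06, edgeR). A Tagln UMI was found in 53.2% of members, 4.79% of adventitial-type cells and 1.06% of luminal cells, whose median depth was 3563 UMIs.

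Acta2, alpha-smooth muscle actin (chromosome 19, 34241090 to 34255590, minus strand), stood at 421, 1996, 499 and 651 CPM in the members and 44.2, 0, 110 and 58.9 CPM in adventitial-type cells. Again the groups did not overlap and tumour 2 was highest. The log2 fold change was 3.82 (SE 0.56, adjusted p = 0.00115, edgeR), and Acta2 did not pass with DESeq2, although the log2 fold change there was 4.39. Myl9, the regulatory light chain of smooth muscle myosin, stood at 206, 390, 209 and 259 CPM against 22.1, 45.3, 25.4 and 39.3 CPM, with no overlap (log2 fold change 2.89, SE 0.33, adjusted p = 0.000211, edgeR). The tropomyosins Tpm1 (1.72) and Tpm2 (2.58), the calponins Cnn2 (1.98) and Cnn3 (1.20), Cald1 (1.07), the actin crosslinker Actn1 (3.09), the filamin gene Flna (1.59) and Palld (1.07) also rose on the log2 scale. The list median was 1.31. None of the 18 was lower with edgeR, at an unadjusted p under 0.05 or with DESeq2. The count of higher genes was 7 without mouse 2, 6 without mouse 3, 12 without the cells marked by the 4 genes and 8 with DESeq2. Actn1 was lost without mouse 3, at a log2 fold change of 2.78.

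Collagen chains outside the rule were higher as a group. Of 17 tested, 12 rose and 1 fell, with a median log2 fold change of 1.14. Col12a1, a chain that binds to the surface of collagen I fibrils, stood at 1155, 897, 521 and 1634 CPM in members and 88.4, 147, 178 and 246 CPM in adventitial-type cells, with a log2 fold change of 2.51 (SE 0.24, adjusted p = 4.9e-05, edgeR). Tumour 3, with the cells of low Col12a1 described above, was the lowest of the members but remained above all adventitial values. Col8a1 stood at 265, 1494, 295 and 564 CPM against 22.1, 67.9, 110 and 255 CPM (log2 fold change 2.35), so the groups lay close at their edges.

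Col11a1, a minor fibrillar chain, stood at 223, 132, 411 and 219 CPM against 0, 22.6, 67.7 and 39.3 CPM (log2 fold change 2.73). It was highest in tumour 3 and was lost without mouse 3, at a log2 fold change of 3.30. Col7a1, the chain of anchoring fibrils, stood at 59.0, 60.8, 42.0 and 82.5 CPM in members and at 0 in adventitial-type cells of all 4 tumours. Its 125 UMIs in members, against the floor of 3 counts over the whole adventitial group, make it at least 6.97-fold higher. The collagen VI genes Col6a1 (1.10), Col6a2 (1.02) and Col6a3 (1.46) rose in parallel. Col14a1, which also binds fibrils and is a gene of adventitial cells, was the chain that fell, from 466 to 1042 CPM in adventitial-type cells to 126 to 355 CPM in members (log2 fold change -1.61). The count of higher chains was 14, 7 and 6 without mice 1, 2 and 3, 10 without the cells marked by the 4 genes and 7 with DESeq2. Of 20 genes for collagen processing and cross-linking 0 passed in either direction with edgeR or DESeq2, and at an unadjusted p under 0.05 edgeR had 4 higher and 0 lower.

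Other secreted matrix genes moved in both directions. Of 32 matricellular and glycoprotein genes, 7 rose and 9 fell, and of 13 proteoglycan genes 2 rose and 5 fell. The matricellular counts were 2 and 2 without mouse 3, 3 and 5 without mouse 2 and 3 and 4 with DESeq2. Spp1, osteopontin, stood at 1597, 1084, 623 and 2008 CPM in members and 133, 79.3, 67.7 and 403 CPM in adventitial-type cells (log2 fold change 2.90, SE 0.25, adjusted p = 2.4e-05, edgeR), without overlap. Luminal cells also held Spp1, at a mean of 2019 CPM and in 45.1% of cells against 44.0% of members, and the part of their RNA in the member value was not tested. Mgp stood at 8284, 8065, 7713 and 5291 CPM against 2430, 283, 4765 and 3634 CPM (log2 fold change 2.00), while luminal cells averaged 49.6 CPM. The adventitial cells of tumour 2 were far below the others for Mgp.

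Thbs1 (1.96), Thbs2 (1.16), Ccn4 (2.79) and Sparc (0.55) were among the matricellular genes that rose on the log2 scale. Ccn4 was lost without mouse 2 (2.06) and without mouse 3 (3.10). Tnxb, the tenascin X gene, fell from 363 to 657 CPM in adventitial-type cells to 5.69 to 25.3 CPM in members (log2 fold change -4.83). Efemp1, fibulin 3, fell by 4.55, Ccn3 by 3.38 and fibronectin (Fn1) by 0.87 on the log2 scale. Ccn3 was lost without mouse 3, at a log2 fold change of -1.48. Among proteoglycans decorin (Dcn) stood at 1289, 1190, 1639 and 1177 CPM in members and 4330, 3623, 4147 and 4420 CPM in adventitial-type cells (log2 fold change -1.72), with little variation among tumours. Prg4 (lubricin), Gpc3 (glypican 3) and Ogn fell by 4.17, 3.85 and 3.03, while syndecan 1 (Sdc1) rose by 2.43 and Bgn by 0.76. Sdc1 was lost without mouse 3, at 2.07, and Prg4 with DESeq2, at -4.57. Both were lost without the replicate block, Sdc1 at 2.33 and Prg4 at -4.51.

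**Figure D3:**
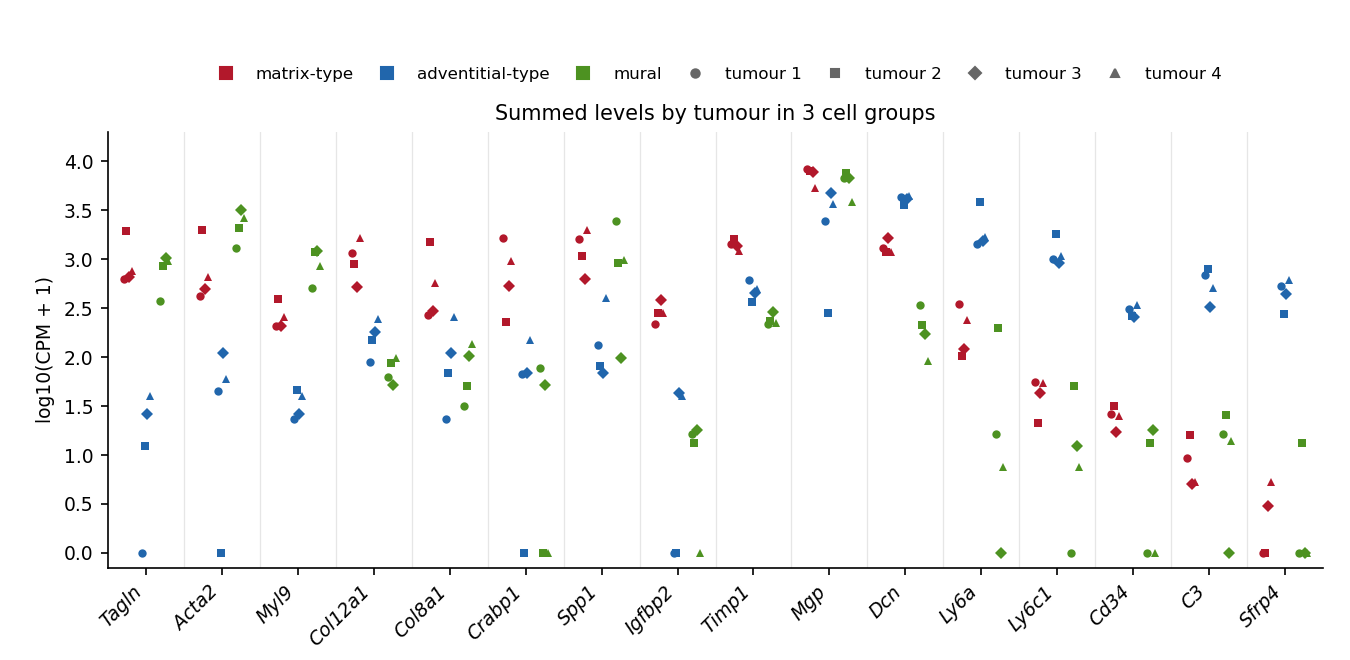
Summed level of 16 genes as log10(CPM + 1) (y axis) in matrix-type, adventitial-type and mural cells, with a marker shape for each of tumours 1 to 4. Tagln, Acta2 and Myl9 are high in matrix-type and mural cells and low in adventitial-type cells, and Ly6a, Ly6c1, Cd34, C3 and Sfrp4 are highest in adventitial-type cells in every tumour.

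Protease inhibitors and matrix proteases moved in both directions. Of 20 genes tested, 2 rose and 6 fell, and 2 fell without mouse 2, without mouse 3 and with DESeq2. Serpine2, the inhibitor protease nexin 1, stood at 792, 1449, 632 and 1190 CPM against 110, 79.3, 322 and 236 CPM (log2 fold change 2.42). Timp1, an inhibitor of metalloproteinases, stood at 1428, 1611, 1367 and 1201 CPM against 619, 362, 449 and 491 CPM (log2 fold change 1.52). Members lay above adventitial-type cells in every tumour for both. Mmp3 (stromelysin 1) was at 33.7 to 50.7 CPM in members and 306 to 491 CPM in adventitial-type cells, with a log2 fold change of -3.28, and the serine protease Htra3 fell by 2.86.

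Several secreted or intracellular proteins outside these lists were among the 15 highest folds. Crabp1 stood at 1631, 228, 533 and 964 CPM in members and 66.3, 0, 67.7 and 147 CPM in adventitial-type cells (log2 fold change 3.36, SE 0.36, adjusted p = 0.000142, edgeR), and it was found in 48.3% of members and 0.391% of luminal cells. Members of tumour 2 were lowest, still above all adventitial values. Igfbp2, an insulin-like growth factor binding protein, stood at 215, 279, 382 and 282 CPM against 0, 0, 42.3 and 39.3 CPM (log2 fold change 3.61). Its paralogue Igfbp3 was at 265, 208, 30.7 and 255 CPM against 0, 0, 16.9 and 29.5 CPM (3.46). Tumour 3 was the exception for Igfbp3, with members close to adventitial-type cells.

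Cdkn2a, which encodes the cell cycle inhibitors p16 and p19, stood at 118, 142, 239 and 151 CPM in members against 0, 0, 25.4 and 39.3 CPM (log2 fold change 3.13). A UMI of it was seen in 27.2% of members, 4.11% of adventitial-type and 9.16% of luminal cells, and the call was lost without mouse 3. The adhesion molecule gene Ncam1 (log2 fold change 3.04), the dimethylarginine hydrolase gene Ddah1 (3.36), the complement inhibitor gene Cd59a (2.90), the filamin-binding Rflnb (2.82) and C1qtnf3 (3.13) completed the highest folds. C1qtnf3 was lost without mouse 2 (2.47), Cd59a without mouse 3 (3.67) and Ddah1 with DESeq2 (4.84).

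Not all genes often listed for tumour fibroblasts of the matrix type were higher. Of 20 tested on such a list, 5 rose (Ncam1, Spon1, Col11a1, Col12a1 and Ccn4) and 3 fell (Tnfaip6, Spon2 and Sfrp1), with a median log2 fold change of 0.15. Cthrc1, a secreted collagen-associated protein, was at 223, 1272, 110 and 306 CPM in members and 552, 374, 432 and 579 CPM in adventitial-type cells and was not called. Its level in members was above that in adventitial-type cells in tumour 2 and below it in tumours 1, 3 and 4. Fap, the fibroblast activation protein, stood at 54.8, 55.7, 12.3 and 34.1 CPM against 44.2, 56.6, 8.46 and 58.9 CPM, and the groups overlapped. A Fap UMI was found in 7.41% of members, so the depth leaves little room to see a difference for this gene.

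Genes of adventitial fibroblasts outside the rule were mostly lower in members. Of 29 tested, 21 fell and 2 rose (Col15a1 and Cxcl14), with a median log2 fold change of -1.61. The count of lower genes was 11 without mouse 3. Ly6c1 stood at 54.8, 20.3, 42.0 and 54.0 CPM in members and 994, 1800, 906 and 1090 CPM in adventitial-type cells (log2 fold change -4.80, SE 0.31, adjusted p = 3.6e-06, edgeR). Cd34, a sialomucin of progenitor and adventitial cells, stood at 25.3, 30.4, 16.4 and 24.2 CPM against 309, 260, 254 and 344 CPM (-3.75). Ly6a, which encodes the Sca-1 antigen, stood at 346, 101, 119 and 239 CPM against 1414, 3804, 1540 and 1699 CPM and was seen in 28.0% of members and 84.2% of adventitial-type cells. None of these genes overlapped between the groups. Pcolce2, a procollagen proteinase enhancer, fell by 5.20 and the guidance molecule gene Sema3c by 5.16 on the log2 scale. Reads of Ly6c1, C4b and Gstm1 may in part be shared with close paralogues, and how the counting treated them is not given in the sources used here.

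Complement genes and the Wnt antagonist gene Sfrp4 were among the lowest folds. Sfrp4, a secreted Wnt antagonist, stood at 0, 0, 2.05 and 4.27 CPM in members and 530, 272, 440 and 619 CPM in adventitial-type cells (log2 fold change -7.68, SE 0.43, adjusted p = 2.2e-06, edgeR). Complement C3 stood at 8.43, 15.2, 4.10 and 4.27 CPM against 685, 793, 322 and 511 CPM (-6.35, SE 0.31, adjusted p = 1.6e-06, edgeR), and 1.65% of members held a C3 UMI against 43.8% of adventitial-type and 3.22% of luminal cells. The member share is thus no higher than that of luminal cells. C4b, of the classical complement pathway, fell by 4.76, and Has1, a hyaluronan synthase, fell by 5.65.

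Of 16 inflammatory fibroblast genes, 8 fell (Cxcl12, Has1, C3, C4b, C1s1, C1ra, Serping1 and Nfkbia) and 1 rose, with a median of -1.07. The chemokine gene Cxcl12 stood at 21.1, 157, 123 and 145 CPM in members against 619, 408, 423 and 786 CPM (log2 fold change -2.46), and was lost without mouse 3 (-2.76). Cxcl14 went the other way, at 1146, 400, 934 and 418 CPM against 398, 79.3, 440 and 314 CPM (1.29), with overlapping ranges across tumours but a higher level in the members of each tumour. Il6 had a UMI in 3 of 729 members. The other lowest folds were those of Vegfd (-4.48), the adhesion genes Opcml (-4.93) and Cadm3 (-4.61), the guanine deaminase gene Gda (-4.39) and the glutathione transferase gene Gstm1 (-4.24). Opcml was lost without mouse 3 (-4.56).

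Signalling genes showed few calls. Of 10 TGF-beta pathway genes tested, Pmepa1, a feedback inhibitor that the pathway induces, rose by 1.36, while the receptor genes Tgfbr2 and Tgfbr3 and the latent binding protein gene Ltbp1 fell by 1.04, 1.49 and 2.97. Pmepa1 was lost without mouse 2 (1.09), and Ltbp1 without mouse 3 (-3.77). Tgfbr2 was lost in 8 alternatives and Tgfbr3 in 7, with DESeq2 (-1.06 and -1.67), without mouse 2 (-0.70 and -1.26) and without mouse 3 (-1.37 and -2.15) among them. Of 11 growth factor and Wnt or BMP genes 2 rose, Dkk3 (2.52) and midkine (Mdk, 1.31), and 3 fell. Dkk3 was lost without mouse 2 (2.58) and with DESeq2 (2.72). Of 13 receptor and integrin genes 2 rose and 3 fell. Among these calls Itga1 (1.62) was lost in 6 alternatives, Ddr2 (-1.23) in 10 and Il6st (-1.21) in 9. Pdgfrb, the platelet-derived growth factor receptor beta, stood at 329, 228, 419 and 314 CPM against 133, 45.3, 102 and 206 CPM (1.43) and was lost without mouse 3 (1.68). Of 18 transcription factor genes Runx1 rose (1.32) and Klf2, Klf4 and Klf6 fell (-2.33, -2.42 and -1.02). Runx1 was lost in 7 alternatives, without mouse 2 (1.32), without mouse 3 (1.69) and with DESeq2 (1.48) among them. Klf6 was lost in 11 alternatives, without mouse 2 (-0.79), without mouse 3 (-1.29) and with DESeq2 (-1.03) among them.

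Immediate early, lipid and interferon genes were lower where they were called. Of 14 immediate early and dissociation response genes 7 fell and 0 rose, with Fos at -1.29, Jun at -1.10 and Dusp1 at -1.98, and 1 fell without mouse 3, 3 without mouse 2 or tumour 4 and 3 with DESeq2. These genes also respond to tissue digestion, and its part was not tested. Of 9 lipid genes 5 fell, among them the fatty acid binding protein gene Fabp4 (-3.77) and Apoe (-2.33). Of 6 interferon response genes 3 fell, with Ifi27l2a at -3.82, and of 5 antigen presentation genes 2 fell, H2-D1 (-0.64) and B2m (-0.60). Of 12 glycolysis and hypoxia genes the adrenomedullin gene Adm fell (-4.04). Of 31 secretory pathway genes 1 rose, Ssr2 (0.83). Bst2 (-1.04), among the 3 interferon genes that fell, was lost under 9 alternatives. H2-D1, B2m and Ssr2 were each lost under at least 6 alternatives. Of 4 proliferation genes tested 0 passed with edgeR or DESeq2 and 0 had an unadjusted p under 0.05, and at least 2 proliferation UMIs were held by 6.72% of members, 6.16% of adventitial-type and 16.3% of luminal cells.

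**Figure D4:**
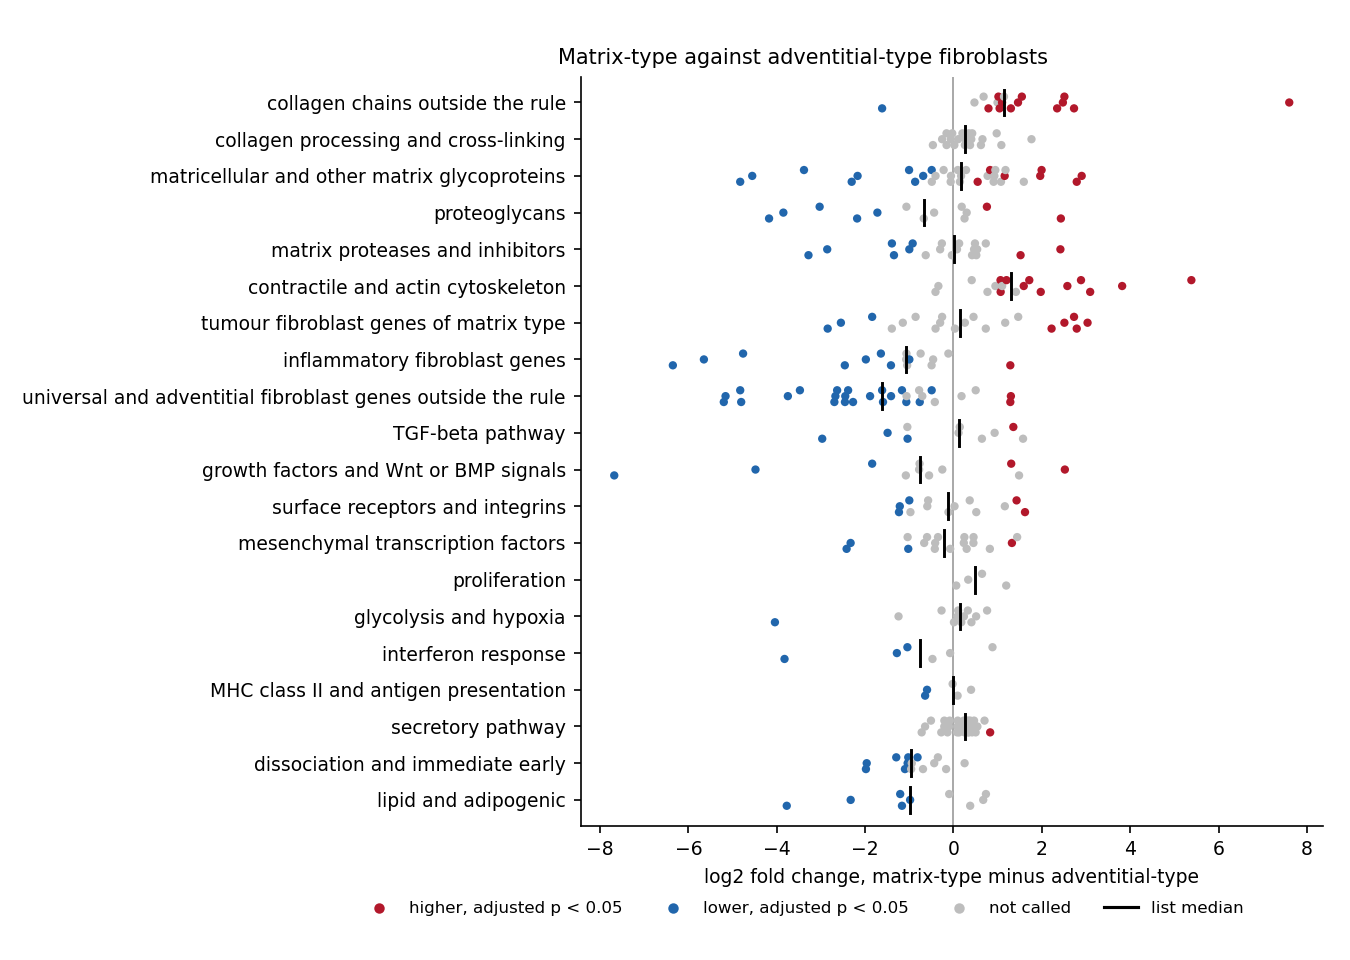
Log2 fold change (x axis) of each tested gene of 20 lists, matrix-type minus adventitial-type fibroblasts, with red points higher and blue points lower at an adjusted p under 0.05 and the list median as a bar. Contractile genes and collagen chains lie to the right and adventitial and inflammatory genes to the left. The point at 7.60 is Col7a1, fitted against counts of 0 and so no measure of size.

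The comparison with mural cells asks how the members differ from the other collagen-making stroma, defined here by at least 4 UMIs of Rgs5 and Higd1b. Mural cells had no collagen minimum, while members needed at least 15 collagen UMIs and at most 1 UMI of Rgs5 and Higd1b. Higher collagen RNA and lower mural marker RNA in the members are therefore in part set by these rules. Most collagen, cross-linking, matricellular and proteoglycan genes tested were higher in the members, and 9 of 9 mural markers tested were lower, with a median log2 fold change of -4.39. Of 2767 genes tested, 391 (14.1%) were higher and 231 (8.35%) lower in edgeR's quasi-likelihood test, with a median log2 fold change over all genes of 0.011. Mural cells numbered 40, 33, 74 and 68 in tumours 1 to 4. They held more luminal RNA, since 6 of 6 luminal markers tested were lower in members, with a median of -1.66, and the part of this in other results was not tested.

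Of 18 collagen chains 13 rose and 4 fell, with a median log2 fold change of 2.05. Of 20 collagen processing and cross-linking genes 15 rose, or 10 with DESeq2, and 0 fell with edgeR, at an unadjusted p under 0.05 or with DESeq2. Lox and Loxl1, which encode lysyl oxidases that cross-link collagen, rose by 4.11 and 3.22. Lox stood at 206, 299, 108 and 175 CPM in members and 0, 37.1, 11.3 and 0 CPM in mural cells. Its level in adventitial-type cells was 155, 125, 110 and 216 CPM, a range that overlaps that of the members. Secretory pathway genes rose in 15 of 30 and fell in 1, with a median of 0.61. The count was 6 without mouse 1 and 5 with DESeq2.

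Matricellular genes rose in 20 of 26, with a median of 2.80, and 1 fell. Cthrc1 rose by 5.97 (SE 0.37, adjusted p = 1.6e-08, edgeR), from 0, 24.7, 5.66 and 0 CPM in mural cells. C1qtnf3 and Thbs4 had no UMI in mural cells and were at least 20.2-fold and 18.8-fold higher, and the xylosyltransferase gene Gxylt2 at least 8.71-fold higher, against a floor of 3 counts over all mural cells. Pdpn (podoplanin) and Fndc1 rose by 5.62 and 5.57. Lumican (Lum) rose by 4.95, from 6.50 to 30.9 CPM in mural cells to 464 to 537 CPM in members, and decorin by 2.88. Pdgfra, the receptor that marks fibroblasts, rose by 4.73, at 139, 50.7, 121 and 122 CPM in members against 0, 0, 11.3 and 0 CPM. Thus Cthrc1 and Pdgfra, which were not called against adventitial-type cells, rose against mural cells.

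Contractile genes were divided. Of 23 tested, 11 fell and 1 rose, with a median of -0.47. Des (desmin), Myh11 (smooth muscle myosin heavy chain), Lmod1 and Mylk fell by 6.23, 5.77, 4.96 and 3.34. Des stood at 0, 0, 2.05 and 7.11 CPM in members and 170, 420, 362 and 175 CPM in mural cells. Acta2 stood at 1314, 2076, 3173 and 2637 CPM in mural cells, above the members of the same tumour in every case, though the members of tumour 2 at 1996 CPM exceeded the mural cells of tumour 1. Tagln stood at 371, 853, 1041 and 961 CPM in mural cells, a range that overlaps the members. Genes that define mural cells were lowest. Serpina1b, Abcc9 (a potassium channel subunit) and Olfr558 had no UMI in the members and were at least 286-fold, 124-fold and 56.2-fold lower, against 3 counts over all members, and reads of Serpina1b may be shared with its close paralogues. The channel gene Kcnj8 fell by 8.54, Dlk1 by 7.35 and the myosin phosphatase inhibitor gene Ppp1r14a by 7.02.

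Of 10 proliferation genes 5 fell against mural cells and 0 rose with edgeR, at an unadjusted p under 0.05 or with DESeq2, with a median of -0.89. Cyclin D1 (Ccnd1) fell by 2.07. The count of lower genes was 2 both without mouse 3 and with DESeq2. Growth factor genes rose in 7 of 10 and fell in 1. Igf1 and midkine rose by 3.64 and 3.46, and Pdgfa, a ligand of platelet-derived growth factor receptors, fell by 2.89. Of 19 adventitial genes 10 rose and 5 fell (7 and 1 without mouse 1), so that several genes placed low against adventitial-type cells still lay above mural cells, as the small matrix protein gene Mfap5 did (4.39 against mural and -0.49 against adventitial-type cells).

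**Figure D5:**
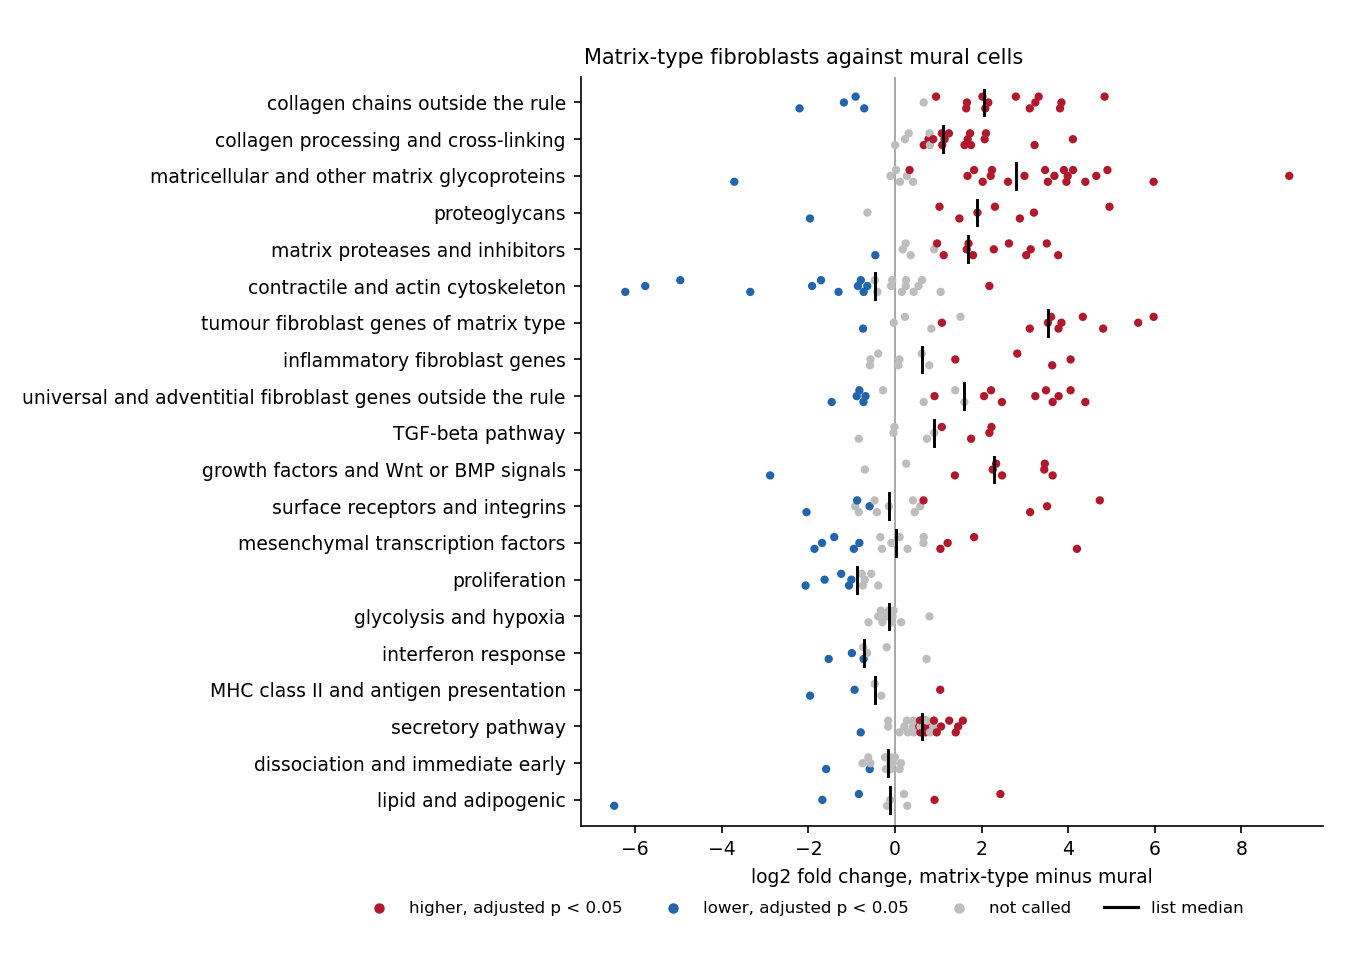
Log2 fold change (x axis) of each tested gene of 20 lists, matrix-type fibroblasts minus mural cells, with red points higher and blue points lower at an adjusted p under 0.05 and the list median as a bar. Collagen, cross-linking and matricellular genes lie to the right, and contractile genes extend to the left as far as desmin. The point at 9.10 is Thbs4, fitted against counts of 0.

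Members with and without an Lrrc15 UMI were set side by side as a description, since Lrrc15 is a rule gene and the cells with it were deeper. They numbered 78, 37 and 373 in mice 1 to 3 against 39, 14 and 188 without it, with a median of 1986, 3946 and 3000 UMIs against 1615, 2902 and 2490. Col12a1 stood at 1450, 1073 and 1242 CPM with Lrrc15 and 454, 338 and 408 CPM without it. Acta2 stood at 473, 2392 and 675 CPM against 298, 739 and 307 CPM. Both genes were thus higher beside Lrrc15 in each mouse, as was Crabp1, at 1900, 287 and 882 CPM against 994, 42.3 and 331 CPM. Spp1 was not, with 1019, 653 and 1295 CPM against 2967, 2451 and 994 CPM, lower beside Lrrc15 in mice 1 and 2 and higher in mouse 3. Mouse 3 includes the 159 cells of tumour 3 marked by Ifitm1, Tnmd, Cd79b and Slco2a1. An Lrrc15 UMI was held by 50.3% of them and by 69.7% of the tumour 3 members with none of these genes. The 159 cells were lower in Spp1 (226 against 1093 CPM), Col12a1 (221 against 993) and Crabp1 (271 against 962). Their part in the mouse 3 values was not tested.

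Among the 10 genes with the widest range between tumours, 6 were highest in tumour 3, 3 in tumour 2 and 1 in tumour 1. Ifitm1 (29.5, 0, 650 and 2.84 CPM), Tnmd (92.7, 0, 522 and 0), Cd79b (25.3, 0, 241 and 0), Slco2a1 (21.1, 0, 210 and 12.8) and S100a4 (131, 65.9, 919 and 71.1) were highest in tumour 3, where the cells described above lay. C1qtnf3 (75.8, 507, 14.3 and 195 CPM), the monocyte chemokine gene Ccl7 (21.1, 572, 30.7 and 55.5) and the matrix gene asporin (Aspn, 114, 709, 47.1 and 256) were highest in tumour 2. Ecrg4 stood at 1310, 1069, 56.3 and 365 CPM, highest in tumour 1 and lowest in tumour 3. S100a8, a granulocyte gene, reached 297 CPM in tumour 3, but 273 of its 290 UMIs there lay in 1 cell.

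The thoracic and inguinal tumours of mouse 3 gave 1 library each, so their difference has no replicate check. Of 1442 genes compared in members, 52 were over 2-fold higher and 60 over 2-fold lower in the thoracic tumour 3 than in the inguinal tumour 4. The genes of the tumour-fibroblast list had a median log2 difference of -0.59, with 6 of 17 over 2-fold lower and 2 higher, while the median of all genes was 0.030. The 4 TGF-beta pathway genes compared had a median of -1.16, with Tgfb3, Tgfbr2 and Pmepa1 over 2-fold lower, and the 6 lipid genes a median of 0.75, with 2 over 2-fold higher and 1 lower. The 11 macrophage markers, Fcer1g included, summed to 272 CPM in the members of tumour 3 and 108 CPM in those of tumour 4. The 1 macrophage marker high enough to be compared, Fcer1g, stood at 157 CPM in tumour 3 and 8.53 CPM in tumour 4. Of its UMIs in tumour 3, 142 lay in the 159 members with at least 2 of Ifitm1, Tnmd, Cd79b and Slco2a1. The tumour 3 members with none of these genes held 11. Collagen chains had a median of -0.18 and contractile genes of -0.26. Postn, Lrrc15, Tnc and Col12a1 were each lower in tumour 3 than in tumour 4, and Col11a1 was higher. Tumour 3 members with none of Ifitm1, Tnmd, Cd79b and Slco2a1 differed in part from this. In them Postn stood at 1895 CPM and Tnc at 301 CPM, against 1674 and 296 CPM in the members of tumour 4. Lrrc15 (664 against 732 CPM), Col12a1 (993 against 1634 CPM) and Col11a1 (186 against 219 CPM) were lower in them. The part of the cells with these genes in the tumour difference was not tested.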

How the data were processed

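Single-cell RNA was measured in 4 tumour libraries of 3 mice. The authors deposited raw UMI counts per gene and barcode, made with Cell Ranger 2.2.0 on mm10 (GRCm38), with FastQC, per the submitters' processing notes. The gene table holds 55472 entries. How reads shared by paralogues were counted is not given in the sources used here. Every deposited barcode was kept, with no further cell filter, and no doublet caller was run. The members, gene lists and thresholds were chosen with earlier results of these data known.

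Counts were summed per mouse and cell group, for mice with at least 20 cells in each arm. The quasi-likelihood test of edgeR 4.0.16 (R 4.3.3, limma 3.58.1) was run after filterByExpr and TMM scaling, with mouse as a block, since both arms come from the same animals. P-values were two-sided and adjusted by Benjamini-Hochberg over all tested genes outside the 17 rule genes, with calls at 0.05. CPM means are over 3 mice, and n = 3 limits every test. Intervals are exact Clopper-Pearson at 95% and cover counting error only. The procedure was tested on simulated data. DESeq2 1.42.0, no block, other scaling, no filter, leave-outs, stricter rules and thinning were alternatives. Python 3.11.15 with numpy 2.4.6, scipy 1.17.1, pandas 2.3.3 and matplotlib 3.10.9 was used, and coordinates are from GENCODE M21 (GRCm38).

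Genes named against adventitial-type cells are the 15 highest and 15 lowest called folds of at least 50 CPM in the higher arm that moved alike in every mouse, and against mural cells the 6 highest and 6 lowest. Up to 4 called genes per list at 20 CPM or more, the 10 widest genes between tumours at 200 CPM or more, the rule genes and the reporter were added. Other genes named, such as Fap, Cthrc1, Il6, Dcn, Mgp, Cd34, Ly6a and those of the tumour 3 cells, were chosen after their values were seen. A marker list of a further cell type is not reported here.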

Additional observations from a re-analysis of the deposited data

Results flagged for a closer look

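Of 101 results looked at over the 4 tumours, 14 had a tumour whose gap to the nearest other exceeded Dixon's 95% limit for 4 values. Chance alone flags about 1 in 20 groups of 4, but the results looked at include genes picked for their wide range between tumours, among them Ifitm1, Cd79b, S100a8, Ccl7, Slco2a1 and S100a4, so the number flagged is not to be read against that rate. In tumour 2 the members were high for Tagln (1950 CPM), Acta2 (1996 CPM), Ccl7 (572 CPM), Ccn3 (106 CPM against 1.02 to 8.53 CPM elsewhere), Ogn (101 CPM against 29.5 to 32.7 CPM), Vegfd (40.5 CPM against 2.84 to 9.22 CPM) and Efemp1 (30.4 CPM against 0 to 5.12 CPM), and low for the rule gene Krt8 (15.2 CPM against 33.7 to 35.5 CPM). Tumour 2 also had the fewest members, 51, so that Krt8, Efemp1 and Vegfd rest on few UMIs.

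In tumour 3 the members were high for Ifitm1 (650 CPM), Cd79b (241 CPM), Slco2a1 (210 CPM), S100a4 (919 CPM), S100a8 (297 CPM) and Cadm3 (12.3 CPM, with 0 in the other tumours). Ifitm1, Cd79b and Slco2a1 help define the group of cells described for that tumour, so they follow it by definition. S100a4, outside the definition, was also higher in those cells. For S100a8, 17 UMIs remained when the single highest cell was left out.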

How the results depend on the processing

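Of 157 named gene results against adventitial-type and mural cells, 107 kept their call under every alternative that tested them and 50 lost it under at least 1. Counts of called genes moved more. Without the replicate block, calls against adventitial-type cells were 62 higher and 112 lower in place of 100 and 185, and 62 and 110 of them were also called with the block. With DESeq2 they were 51 and 90, and against mural cells 216 and 131 in place of 391 and 231. With no count filter there were 207 higher and 157 lower, and 695 higher against mural cells, with the median of all genes shifted to 0.51 and 0.41. Strict exclusion gave 62 and 93, thinning to 1500 UMIs gave 103 lower, and arms with at least 4 marker UMIs gave 113 lower. These fits kept 2 mice. Leaving out each mouse or tumour gave 36 to 133 higher and 60 to 191 lower against adventitial-type cells, and 228 to 468 and 142 to 304 against mural cells. The lowest counts against adventitial-type cells, 36 and 60, came without mouse 3, 54 and 134 without mouse 2, and 64 and 106 without tumour 4. Without the cells marked by Ifitm1, Tnmd, Cd79b and Slco2a1, an alternative chosen after seeing the data, there were 112 and 197 (92 and 167 shared) and 432 and 267 against mural cells (378 and 217 shared). The direction turned for Cd74 against mural cells without mouse 3 (0.18; without mouse 2 it was -2.70) and for Fos against mural cells under strict exclusion (0.053). Members were 35.8% of fibroblasts at 4 or more marker UMIs in place of 48.0%. The cause of these shifts was not tested. Depth limits genes such as Fap and Il6, and tumour 2 holds 51 members.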
